A study of Danio rerio with 15 samples.

Results

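The genes described here are those whose transcripts stood at least 1 log2 unit higher in zebrafish Müller glia at 36 hours post-lesion (hpl) than at 24 hpl, and that had not passed 0.5 log2 units above the unlesioned level at 8 or 16 hpl. A log2 unit is a doubling. They were chosen by the means of the 3 arrays of each time: 36 minus 24 hpl had to be at least 1, 36 minus 0 hpl at least 1, and 8 minus 0 and 16 minus 0 hpl both under 0.5. Among 15502 probe sets (the groups of short probes that each measure 1 transcript) 159 met these limits. Of these, 24 were set aside by gene symbol because they belong to well-known families of replication factors, cyclins, kinesins and other cell cycle genes, or are other named genes, and 135 remain as the members. The symbols identify 78 named genes (81 probe sets), 32 further probe sets carry only a clone or locus name, 7 carry several symbols and 15 none. Because the values at 36, 24 and 0 hpl chose the members, the rise at 36 hpl is given below as a description, without a test.

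A dividing cell first copies its DNA in S phase and then separates the copies in mitosis. In mitosis, condensin compacts the chromosomes, the kinetochore ties each one to spindle microtubules, a checkpoint holds the cell until all are attached, and the anaphase-promoting complex (APC/C) then releases them. Müller glia are the radial glia of the retina, and in zebrafish they re-enter the cell cycle after photoreceptors are lost and give rise to neuronal progenitors.

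The study compared retinas taken 8, 16, 24 and 36 hours after a light lesion with those of fish that received no light treatment (0 hpl), with 3 biological replicates per time and 1 array each. All fish, controls included, carried the transgene Tg(gfap:GFP)mi2002, in which the promoter of the glial gene gfap drives green fluorescent protein, and were 5 to 6 months old. Retinas were dissociated with enzymes, GFP-positive cells were collected by fluorescence-activated sorting, and amplified, biotin-labelled RNA was hybridised to Affymetrix zebrafish arrays. The number of fish behind a replicate is not given in the sources used here, and a cell counted as a Müller glial cell is one that held GFP.

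The values are log2 values made by RMA, a method that corrects background, equalises the arrays' distributions and summarises the probes of a set. Array medians lay between 4.41 and 4.67, and arrays of the same time correlated at 0.973 to 0.991. Among 10 probe sets of 8 named Müller glia genes, 9 were called lower and 1 (glulb, a glutamine synthetase gene) higher at 36 hpl against 0 hpl, where 26.6% of all probe sets were called lower and 19.9% higher. The glutamine synthetase gene glula averaged 10.65 ± 0.22 at 36 hpl and 11.75 ± 0.05 at 0 hpl, and rlbp1a, which encodes a retinoid-binding protein, 9.56 ± 0.17 at 36 hpl and 11.33 ± 0.07 at 0 hpl (SD, n = 3), so the sorted cells held Müller glia transcripts at high levels at both ends of the series. Photoreceptor transcripts were also measured, with rho (rhodopsin) at 8.79 ± 0.40 at 36 hpl and 9.79 ± 0.32 at 0 hpl (SD, n = 3). From 24 to 36 hpl, 3.11% of all probe sets were called higher and 2.03% lower. None was called of 18 photoreceptor probe sets, 12 of other retinal neurons or 3 of oligodendrocytes and astrocytes. The same held for 3 probe sets of vascular cells, 2 of pigment epithelium and 1 of microglia. Only 1 of 41 microglia and macrophage genes and 1 of 18 pigment epithelium genes was named. In the Müller glia list 1 probe set was called higher. Whether other cells contributed to the step was not tested. The red blood cell list had 1 of 2 probe sets called lower (hbae3), and no member belongs to any of these lists. Summed on the linear scale, the photoreceptor list ranged over 1040 to 1770 at 36 hpl and 1190 to 1550 at 24 hpl. Only genes in a table the authors deposited are named here, and these had changed at least 2-fold at some time, so list counts do not cover list genes that stayed below that size. The shares called among named probe sets are therefore not on the same footing as those of all probe sets.

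The median over the members of their means of 3 arrays was 4.0, 3.72, 3.90, 4.04 and 5.96 in order of time. The same median over all probe sets was 4.63, 4.49, 4.51, 4.56 and 4.52 in the same order. At 0 hpl, 91 of the 135 lay below the median probe set and 44 at or above it, values of different probe sets that do not rank transcript abundance. The members' median difference from 0 hpl was -0.23, -0.14, 0.04 and 1.72 at the 4 times after the lesion. The step from 24 to 36 hpl had a median of 1.54, with quartiles of 1.30 and 2.07, and the largest was 3.35, a 10.2-fold difference. It was at least 2 for 39 members and at least 3 for 9. All 3 arrays at 36 hpl lay above all 3 at 24 hpl for 134 members (11.1% of all probe sets), and above all other 12 arrays for 131 (4.52% of all). The fit called 134 members higher at 36 against 24 hpl (3.11% of all probe sets) and 135 higher at 36 against 0 hpl (19.9% of all), counts that the limits themselves largely fix. The arrays measured bulk RNA, so more dividing cells and more transcript per cell cannot be told apart.

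**Figure D1:**
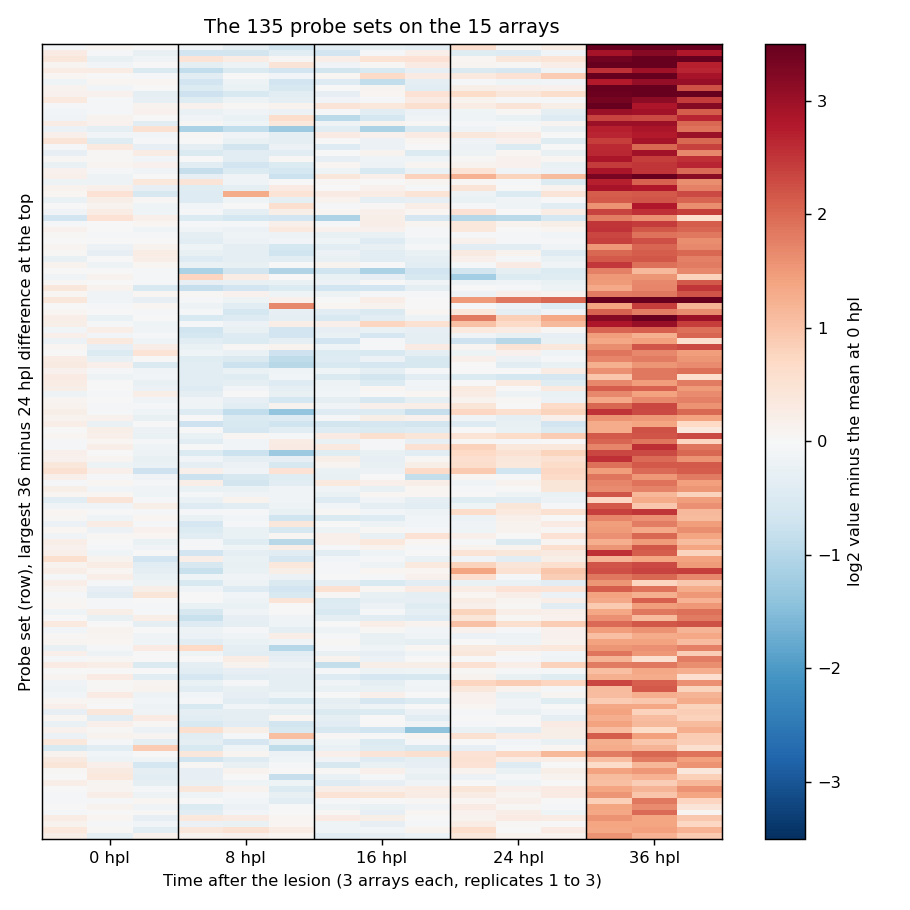
Each row is 1 of the 135 members and each column 1 of the 15 arrays, in order of time, with replicates 1 to 3 side by side. Colour gives the log2 value minus the member's mean at 0 hpl, and rows run from the largest 36 minus 24 hpl difference (3.35) at the top to the smallest (1.02). The columns of 36 hpl stand apart because the members were chosen for this, and a few rows are already red at 24 hpl.

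Among the members on the list of E2F, Rb and G1/S regulators, the largest step was that of cdk1, the kinase that starts mitosis. Its values were 5.69, 5.89 and 5.90 at 0 hpl, 5.15, 5.65 and 5.15 at 8 hpl, 5.37, 4.98 and 5.52 at 16 hpl, 5.76, 5.69 and 5.73 at 24 hpl, and 8.60, 8.91 and 8.88 at 36 hpl. The 12 arrays up to 24 hpl thus stayed within 1 log2 unit of each other, and the 3 arrays at 36 hpl lay far above them, 3.07 ± 0.17 above 24 hpl (SE of the fit). Cks1b, a small subunit that binds such kinases, measured 6.18, 6.04 and 5.43 at 36 hpl and 3.94, 3.72 and 3.73 at 24 hpl, a difference of 2.09 ± 0.17. The transcription factor gene mybl2b (B-Myb), which in mammals acts with the MuvB complex on genes of late cell cycle phases, differed by less, 1.15 ± 0.19, and e2f5, an E2F family factor, by 1.53 ± 0.20. These are the 4 members among 14 named probe sets of E2F, Rb and G1/S regulators. In that list, 8 probe sets were called higher at 36 against 24 hpl (3.11% of all probe sets). They include the 4 members and 2 cdc25b probe sets set aside by symbol, for which the limits largely fix the call. At 24 against 0 hpl 2 of the list were called higher (16.3% of all probe sets) and 6 lower (14.2% of all). Because the named probe sets had changed at least 2-fold at some time, these shares are not comparable with those of all. The forkhead gene foxm1, whose product activates mitotic genes in mammals, is no member because its level at 36 hpl, 6.50 ± 0.29, was only 0.58 above that at 0 hpl, 5.92 ± 0.27 (SD, n = 3). It averaged 5.14 ± 0.33 at 24 hpl and was called lower there than at 0 hpl, by -0.78 (limma adjusted p = 0.0375).

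The spindle assembly checkpoint and its targets held 7 members among 9 named probe sets. Mad2l1, which encodes the checkpoint protein that binds the APC/C activator, measured 4.90, 4.91 and 4.15 at 0 hpl, 3.79, 4.14 and 3.98 at 8 hpl, 4.0, 4.13 and 4.36 at 16 hpl, 4.14, 4.06 and 4.52 at 24 hpl, and 7.22, 7.63 and 7.31 at 36 hpl. Its partner cdc20, that APC/C activator, measured 3.81, 3.45 and 3.19 at 0 hpl, 3.06, 3.29 and 3.16 at 8 hpl, 3.39, 3.45 and 3.78 at 16 hpl, 3.59, 3.42 and 3.41 at 24 hpl, and 6.82, 6.61 and 5.94 at 36 hpl. Neither passed 5 at the 4 earlier times, and both were higher on every 36 hpl array, with steps of 3.15 ± 0.20 for mad2l1 and 2.98 ± 0.21 for cdc20. The chromosomal passenger complex, which corrects faulty attachments, had 3 members on the list. Its kinase gene aurkb measured 6.27, 6.39 and 6.26 at 36 hpl and 4.58, 4.39 and 3.81 at 24 hpl. For cdca8 (borealin) the values were 5.63, 5.74 and 5.98 at 36 hpl and 3.37, 3.24 and 2.95 at 24 hpl. Birc5a (survivin) was the most scattered of the 3, with 7.03, 7.32 and 6.08 at 36 hpl and 4.22, 4.46 and 4.12 at 24 hpl. The locus LOC572121, titled in the authors' deposited table as similar to INCENP, the scaffold subunit of that complex, had a step of 2.05. The remaining list members were ube2s, an APC/C-linked ubiquitin-conjugating enzyme (1.59), and the centrosomal kinase nek2 (1.07). The 2 list probe sets outside the membership both measure arpp19b, a phosphatase regulator that was called higher at 24 against 0 hpl on both.

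The kinetochore and centromere list had 7 members among 8 named probe sets. The list holds 44 genes, of which 8 were named, and named genes had changed at least 2-fold at some time. The NDC80 complex, which grips the end of the microtubule, was represented by 3 of its subunits. Spc24 measured 6.65, 6.70 and 6.55 at 36 hpl and 4.27, 4.37 and 4.50 at 24 hpl. Ndc80 measured 5.46, 5.48 and 5.85 at 36 hpl and 3.45, 3.82 and 3.77 at 24 hpl. For nuf2 the values were 6.81, 7.21 and 7.99 at 36 hpl and 5.47, 5.41 and 5.32 at 24 hpl. No array at 24 hpl reached those at 36 hpl, as for nearly all members by choice (11.1% of all probe sets), and the steps were 2.26 ± 0.15, 1.92 ± 0.15 and 1.94 ± 0.26 in that order. Cenpe, a kinetochore motor, was 1.69 ± 0.19 higher. Zwilch, of the complex that recruits checkpoint proteins to kinetochores, had a step of 1.52, and the centromere protein gene cenpk one of 1.14. The only named list gene outside, mis12, missed the limit with a step of 0.98. No named probe set of this list was called at 24 against 0 hpl, where 16.3% of all probe sets were called higher and 14.2% lower.

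Spindle, centrosome and cytokinesis genes gave the most members of any list, 15 of 29 named probe sets. Among members with a usable symbol the largest step was that of aspm, which organises spindle poles. Its values were 4.49, 4.17 and 3.94 at 0 hpl, 3.52, 3.57 and 3.83 at 8 hpl, 3.54, 4.12 and 4.39 at 16 hpl, 3.77, 3.75 and 4.1 at 24 hpl, and 7.11, 7.39 and 6.99 at 36 hpl. The 36 hpl arrays exceeded every earlier array by more than 2 log2 units, and the step of 3.29 ± 0.21 is a 9.79-fold difference. Prc1b, which bundles the microtubules of the central spindle, measured 5.96, 5.88 and 5.05 at 36 hpl and 2.79, 2.98 and 2.59 at 24 hpl. Ect2, the exchange factor that sets the site of the cleavage furrow, measured 6.35, 5.90 and 6.03 at 36 hpl and 3.52, 3.63 and 3.56 at 24 hpl. Both genes were dim and even before 36 hpl. The spindle gene dlgap5 measured 8.37, 8.50 and 7.55 at 36 hpl and 5.51, 5.67 and 5.37 at 24 hpl. Its 2 probe sets are both members, with steps of 2.62 and 1.68. Cep55l (1.17), of the abscission machinery, sass6 (1.22), a centriole component, haus4 (1.61), of the augmin complex, and ckap2l (2.09) had smaller or middling steps. Nusap1, a spindle protein, is 1 of the 4 members whose 36 hpl arrays did not all exceed the other 12: it measured 5.26, 6.32 and 5.08 at 36 hpl and 3.83, 3.70 and 3.43 at 24 hpl, but 5.58 on 1 array at 8 hpl. The others were hmgb2a, ropn1l and 1 probe set without a symbol. The list also contains mibp (1.08), whose title in the authors' deposited table names a muscle integrin-binding protein rather than a spindle role.

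**Figure D2:**
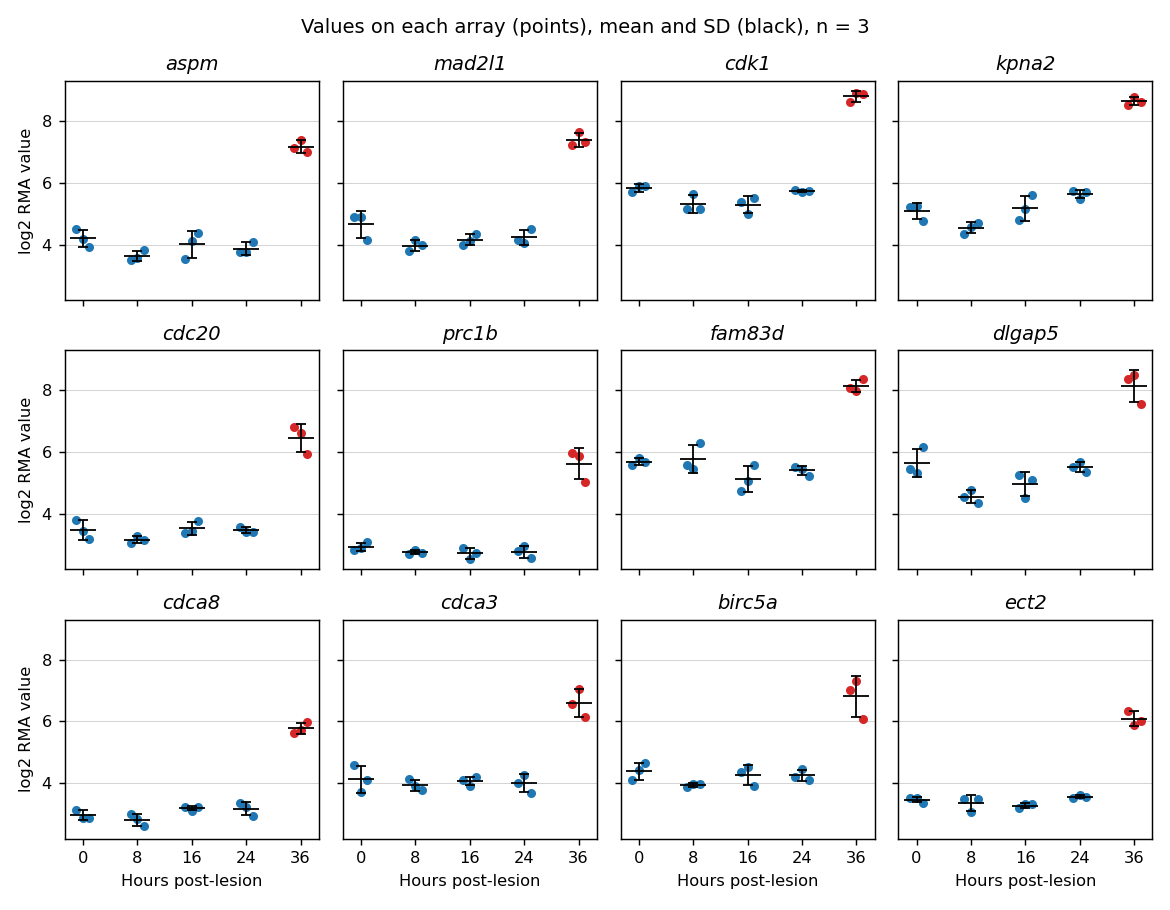
Panels give the 12 named members with the largest 36 minus 24 hpl difference, from aspm (3.29) to ect2 (2.53), with hours post-lesion on the horizontal axis and log2 RMA values on the vertical axis. Points are arrays, red at 36 hpl, and black bars are the mean and SD of 3 arrays. The 36 hpl points of each gene lie above all its earlier points, and kpna2 is the only gene of the 12 called at 24 against 0 hpl.

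Outside the lists, 2 genes with spindle or ubiquitin-linked roles were among the 12 largest. Fam83d, a spindle protein in human cells, measured 8.06, 7.99 and 8.35 at 36 hpl and 5.53, 5.46 and 5.24 at 24 hpl. Cdca3, which promotes breakdown of the mitosis inhibitor Wee1 in vertebrate cells, measured 6.56, 7.05 and 6.15 at 36 hpl and 4.02, 4.28 and 3.70 at 24 hpl. The steps were 2.73 ± 0.22 for fam83d and 2.59 ± 0.24 for cdca3.

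Chromosome structure contributed 5 members among 11 named probe sets. Of the condensin complexes, ncapg measured 5.28, 5.85 and 5.94 at 36 hpl and 3.74, 4.11 and 4.0 at 24 hpl, ahead of ncaph (1.47 ± 0.21) and ncapd3 (1.36 ± 0.19). Esco2, which acetylates cohesin so that sister chromatids stay together, had a step of 1.14 ± 0.18. The nuclear envelope gene lbr was already bright, with 8.64, 8.83 and 8.86 at 36 hpl and 7.32, 7.08 and 7.66 at 24 hpl. At 24 against 0 hpl, 4 probe sets of the list were called higher (16.3% of all probe sets), 2 of top1a and 1 each of lmnb1 and lmnb2. None of these is a member, and the limits leave out many genes that are already high by then.

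Some DNA replication genes beyond those set aside by name were also members. The 6 members among 14 named probe sets were the polymerase and primase subunits pola1 (1.42 ± 0.30) and prim1 (1.38 ± 0.20), the alternative clamp loader gene chtf18 (1.24 ± 0.26), the histone chaperone subunit chaf1b (1.19 ± 0.25), the fork protein gene wdhd1 (1.07 ± 0.23) and the helicase component gins3 (1.02 ± 0.17). Pola1 measured 6.41, 5.97 and 4.65 at 36 hpl and 4.33, 4.25 and 4.18 at 24 hpl. Prim1 measured 4.84, 5.00 and 4.68 at 36 hpl and 3.59, 2.92 and 3.87 at 24 hpl. For pola1, 1 array at 36 hpl was much lower than the other two. The median difference of the 6 from 0 hpl was 0.30 at 24 hpl and 1.55 at 36 hpl. Of the 14 named probe sets of the list 6 were called higher at 24 against 0 hpl (16.3% of all probe sets). The nucleotide enzyme gene dhfr (dihydrofolate reductase) was the only member among 9 named probe sets of deoxynucleotide and thymidylate supply, of which 8 were called higher at 24 against 0 hpl, where 16.3% of all probe sets were. It measured 4.94, 5.56 and 4.76 at 36 hpl and 3.51, 3.52 and 3.94 at 24 hpl. Likewise, of 8 named probe sets for DNA repair 6 were called higher at 24 against 0 hpl (16.3% of all). The only member was ube2t, the ubiquitin-conjugating enzyme of the Fanconi pathway (1.32 ± 0.21). Named probe sets of these lists had changed at least 2-fold at some time, so their shares are not comparable with that of all probe sets.

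Chromatin genes held 4 members among 21 named probe sets, 18 of which were called higher at 24 against 0 hpl (16.3% of all probe sets). Named probe sets had changed at least 2-fold at some time, so their share is not comparable with that of all. The list holds 83 genes, of which 16 were named. Hells, a remodelling helicase that supports DNA methylation, measured 5.95, 6.05 and 4.70 at 36 hpl and 4.21, 3.91 and 4.1 at 24 hpl. The nucleosome-binding protein gene hmgn2 measured 9.48, 9.69 and 9.31 at 36 hpl and 8.15, 7.71 and 8.31 at 24 hpl. For hmgb2a, a DNA-bending protein gene, the values were 8.02, 7.89 and 7.27 at 36 hpl and 6.41, 6.63 and 6.78 at 24 hpl, and 1 unlesioned array, at 7.60, exceeded the lowest of the 36 hpl values. The remaining member, dnmt3ba, encodes a DNA methyltransferase and is described with the genes that differed at 24 hpl.

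**Figure D3:**
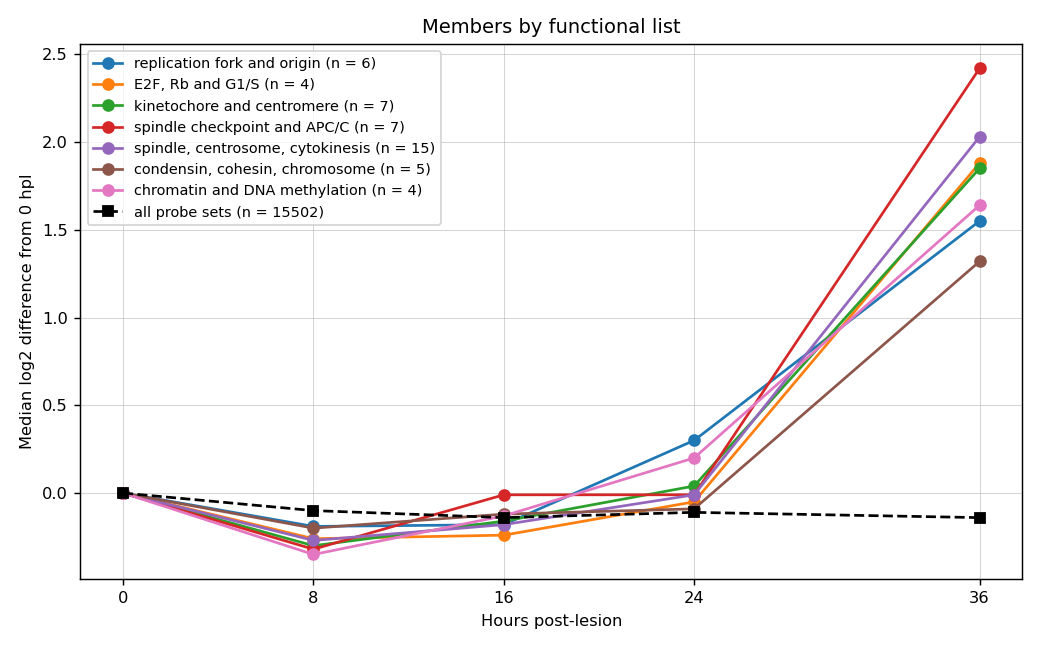
Lines give the median log2 difference from 0 hpl (vertical axis) of the members of 7 lists at each time in hours post-lesion (horizontal axis), with the number of probe sets in brackets, and the dashed line gives all 15502 probe sets. At 24 hpl the replication (0.30) and chromatin (0.20) members lie highest and the other medians are within 0.1 of 0, and at 36 hpl the checkpoint and APC/C members are highest at 2.42.

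Signalling and matrix lists gave 1 member each. Dlc, which encodes a Delta ligand of Notch, was the only member among 15 named probe sets of Notch and neurogenic factors. It measured 3.46, 3.44 and 3.45 at 0 hpl, 3.09, 3.17 and 3.15 at 8 hpl, 3.40, 3.26 and 3.31 at 16 hpl, 3.48, 3.42 and 3.42 at 24 hpl, and 4.50, 4.79 and 4.73 at 36 hpl. The arrays of each time agree closely, and the step was 1.23 ± 0.11. The neurogenic factor gene sox11b was the other list gene called higher at 36 against 24 hpl, and it was called higher at 24 against 0 hpl as well. Mmp14b, a membrane-bound metalloproteinase gene, was the only member among 12 extracellular matrix probe sets, with 6.29, 6.80 and 6.93 at 36 hpl and a wide spread of 5.74, 4.11 and 5.54 at 24 hpl. Of the same list, timp2a, an inhibitor of matrix metalloproteinases, and mmp2, a secreted gelatinase, were also called higher at 36 against 24 hpl. Timp2a averaged 6.18 ± 0.17 at 36 hpl, 4.52 ± 0.21 at 24 hpl and 3.56 ± 0.14 at 0 hpl, and mmp2 5.39 ± 0.52 at 36 hpl, 3.99 ± 0.25 at 24 hpl and 5.34 ± 0.62 at 0 hpl (SD, n = 3).

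The members with a usable symbol that belong to no list numbered 29, and those named here without being among the 12 largest were chosen after their values were seen. Several are not known mainly as cell division genes. Ephb2b, an Eph receptor tyrosine kinase gene, measured 7.48, 7.55 and 7.71 at 36 hpl and 5.17, 5.20 and 4.80 at 24 hpl. The RhoA exchange factor gene net1 measured 8.68, 8.72 and 8.86 at 36 hpl and 6.37, 6.08 and 7.02 at 24 hpl, with a wide spread of 6.12, 7.86 and 7.04 at 8 hpl. Decorin (dcn), a matrix proteoglycan, measured 6.86, 6.20 and 5.76 at 36 hpl and 4.17, 4.1 and 3.65 at 24 hpl. Every array at 36 hpl exceeded every array at 24 hpl in these genes, which the choice of members favours (11.1% of all probe sets), and the steps were 2.53 ± 0.15, 2.26 ± 0.35 and 2.30 ± 0.25. Crabp2a, which encodes a cellular retinoic acid-binding protein, measured 5.50, 6.68 and 6.34 at 0 hpl, 5.69, 5.55 and 5.50 at 8 hpl, 5.10, 6.38 and 5.59 at 16 hpl, 5.18, 5.23 and 5.56 at 24 hpl, and 7.96, 7.78 and 6.77 at 36 hpl. Its lowest 36 hpl array was close to the highest unlesioned one, and its 24 hpl mean was 0.85 below that of 0 hpl without being called (limma adjusted p = 0.0733). Lrrc15 (1.54), slc6a17 (1.30), a transporter of neuronal vesicles in mammals, srgn (1.09), a proteoglycan of secretory granules, and txnipa (1.03), a thioredoxin inhibitor, had steps between 1 and 1.6. Members with probe sets of several symbols included a galectin 1-like gene (lgals1l2 or LOC791523, 3.08) and an anillin-like gene (1.81). The largest step of all members, 3.35, belonged to LOC569270, titled in the authors' deposited table as similar to "apoptosis-inducing, TAF9-like domain 1". That title alone does not settle what the gene does, and it is not counted here among genes without a cell division role.

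No limit was placed on the difference between 24 and 0 hpl, although the means of both times entered the choice. Of the 135 members, 13 were called higher at 24 than at 0 hpl (16.3% of all probe sets) and 1 lower (14.2% of all), so the description of a first rise at 36 hpl goes against the data for those 13. The other 121 were not called, which does not show that they were level. Thymosin beta (tmsb), an actin-binding protein gene, measured 5.23, 4.77 and 4.97 at 0 hpl, 4.47, 4.53 and 4.68 at 8 hpl, 4.46, 4.58 and 4.82 at 16 hpl, 6.82, 5.83 and 6.35 at 24 hpl, and 8.18, 8.44 and 8.00 at 36 hpl. It climbed in 2 steps, 1.35 ± 0.21 above 0 hpl at 24 hpl (limma adjusted p = 0.000122) and a further 1.87 ± 0.21 at 36 hpl. The de novo methyltransferase gene dnmt3ba measured 3.93, 4.1 and 4.16 at 0 hpl, 3.82, 4.0 and 3.74 at 8 hpl, 3.94, 3.75 and 3.97 at 16 hpl, 4.82, 4.96 and 4.82 at 24 hpl, and 6.40, 6.16 and 5.65 at 36 hpl. All its 24 hpl arrays lay above all 9 earlier ones, by 0.80 ± 0.17 against 0 hpl in the means (limma adjusted p = 0.00142). Selenoprotein H (selenoh) measured 6.63, 6.40 and 6.27 at 0 hpl, 6.38, 6.22 and 6.65 at 8 hpl, 6.61, 7.19 and 6.95 at 16 hpl, 7.45, 7.11 and 7.56 at 24 hpl, and 9.26, 9.49 and 8.86 at 36 hpl. It was higher already on 2 of the 16 hpl arrays, and its difference at 24 hpl was 0.94 ± 0.19 (limma adjusted p = 0.00146).

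Kpna2, an importin that carries cargo into the nucleus and releases spindle factors in mitosis, was the only 1 of the 12 largest called at 24 hpl. It measured 5.23, 5.25 and 4.78 at 0 hpl, 4.36, 4.56 and 4.71 at 8 hpl, 4.79, 5.15 and 5.60 at 16 hpl, 5.73, 5.48 and 5.71 at 24 hpl, and 8.53, 8.78 and 8.62 at 36 hpl. The difference at 24 hpl, 0.55 ± 0.19 (limma adjusted p = 0.0373), was small beside the step to 36 hpl, 3.0 ± 0.19. The neuronal beta-tubulin gene tubb2b was called higher at 24 hpl on both probe sets (0.95 ± 0.23 and 0.83 ± 0.17), as were 2 probe sets of tuba1 shared with another sequence (0.68 and 0.67). Another 2 probe sets deposited as tuba1, now tuba1b, are no members and rose earlier. They stood 3.42 and 2.62 above 0 hpl at 16 hpl, and 3.99 and 3.19 above it at 24 hpl. Their steps from 24 to 36 hpl were 0.35 and 0.45. Tubulin genes have near-identical copies, so the assignment of these signals to 1 gene is uncertain. The remaining members called higher at 24 hpl were armc1l (0.53), zgc:86839 (0.66), wu:fb96e11 (0.80), LOC561086 (1.04) and the pair LOC561593 and LOC797705 (1.79). Stmn1b, a microtubule-destabilising stathmin gene, was the 1 member called lower, with 6.22, 6.92 and 6.98 at 24 hpl and 7.28, 7.53 and 7.37 at 0 hpl (limma adjusted p = 0.0389). Its second probe set, no member, differed by -0.58 without being called (limma adjusted p = 0.0895). From 16 to 24 hpl, 5 members were called higher (0.290% of all probe sets) and none lower (0.271% of all): tmsb, dnmt3ba, both tuba1 probe sets, and LOC561593 with LOC797705. The limits capped the 16 hpl mean and used the 24 hpl mean, so these counts are not free of the choice of members.

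**Figure D4:**
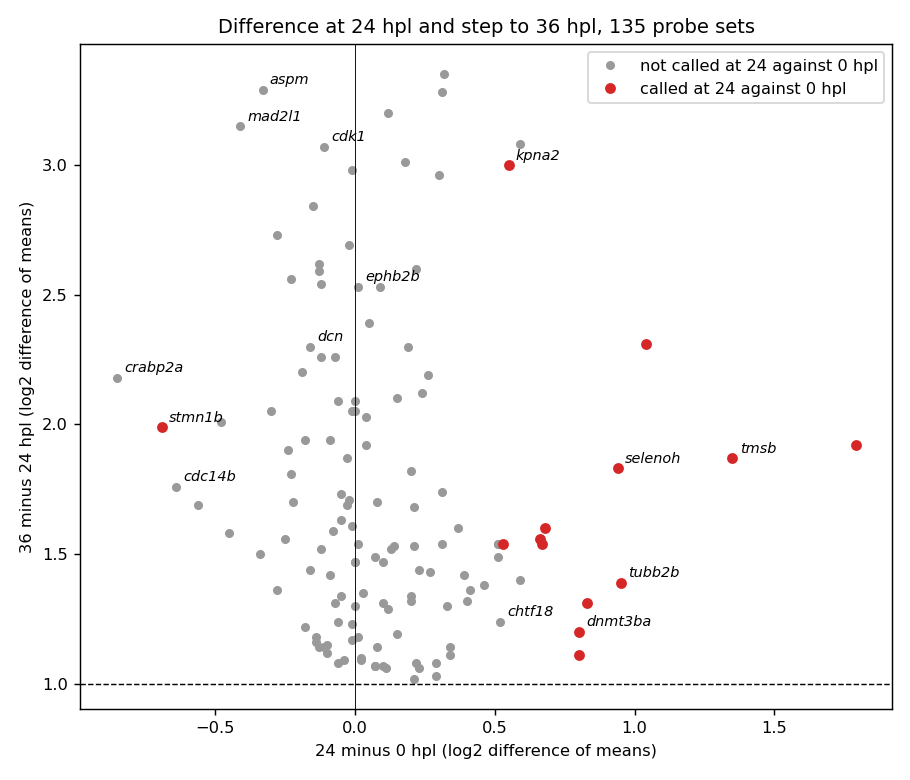
Each point is 1 of the 135 members, with the 24 minus 0 hpl difference on the horizontal axis and the 36 minus 24 hpl difference on the vertical axis, both as log2 differences of means of 3 arrays. Red points are the 14 members called at 24 against 0 hpl, and the dashed line is the limit of 1 that chose the members. Most points stand near 0 on the horizontal axis, 3 are at or beyond 1, and stmn1b and crabp2a lie to the left.

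At the early times, 16 members were called lower at 8 than at 0 hpl (14.5% of all probe sets), and at 16 against 0 hpl 8 were called lower (21.9% of all) and 2 higher (18.4% of all). The limits capped these differences from above. The 2 called higher at 16 hpl were zgc:86839 (0.43) and 1 probe set of LOC795944 (0.45, limma adjusted p = 0.0488). That LOC795944 probe set was not called at 24 against 0 hpl (limma adjusted p = 0.221). For it too, the description of a first rise at 36 hpl goes against a call. The other LOC795944 probe set, also a member, differed by -0.22 at 16 against 0 hpl without being called (limma adjusted p = 0.414). The first probe set of dlgap5 was 1.08 below 0 hpl at 8 hpl, with 4.54, 4.79 and 4.36 at 8 hpl and 5.44, 5.33 and 6.16 at 0 hpl, while its other probe set was 0.31 below without being called (limma adjusted p = 0.212). Mad2l1 was 0.68 below. The direction at 8 hpl depends on scaling. With arrays scaled on the 18 hybridisation-control probe sets, 77 of the 135 lay above 0. The members' median was then 0.07, where the median of all probe sets was 0.19. Under that scaling 1 of the 135 was called lower, and the share of all probe sets called lower is not given here. Between 8 and 16 hpl, which the limits did not compare, 3 members were called higher (5.48% of all probe sets) and 1 lower (3.12% of all). The 3 called higher were LOC561086 (0.84), mibp (0.54) and zgc:86839 (0.51), and the 1 lower was a probe set without a symbol. An unadjusted limma p under 0.05 was found for 21 members. The share of all probe sets under that unadjusted limit is not given here. The 21 therefore cannot be read as a change of the members.

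The 3 arrays at 36 hpl did not place all members alike. The median SD of the members was 0.32 at 36 hpl and 0.15 to 0.20 at the earlier times, where that of all probe sets at 36 hpl was 0.19. Replicate 3 was the lowest of the 3 arrays for 79 members, replicate 1 for 36 and replicate 2 for 20. Against the mean of replicates 1 and 2, replicate 3 had a median difference of -0.27 over the members, with 92 of 135 below 0, and 0 over all probe sets. The 6 replication members were all lower there, with a median of -0.66, as were the 4 chromatin members, also at -0.66. In the kinetochore list 4 of 7 were lower, the median was -0.13, and nuf2 was 0.98 higher. Members with replicate 3 more than 1 log2 unit below both replicates 1 and 2 included pola1, hells and lrrc15 (4.67, 4.51 and 3.39 at 36 hpl). They also included LOC564072 (8.54, 8.82 and 7.22), the galectin 1-like gene (7.83, 7.82 and 6.65), krcp (5.85, 5.77 and 4.74) and ropn1l. Ropn1l, at 4.32, 4.95 and 3.08 at 36 hpl and 3.12, 3.21 and 2.82 at 24 hpl, was the only member whose arrays overlapped between 36 and 24 hpl. How these differences came about was not tested. Without replicate 3 of 36 hpl, 158 probe sets met the limits, of which 129 were among the 135.

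**Figure D5:**
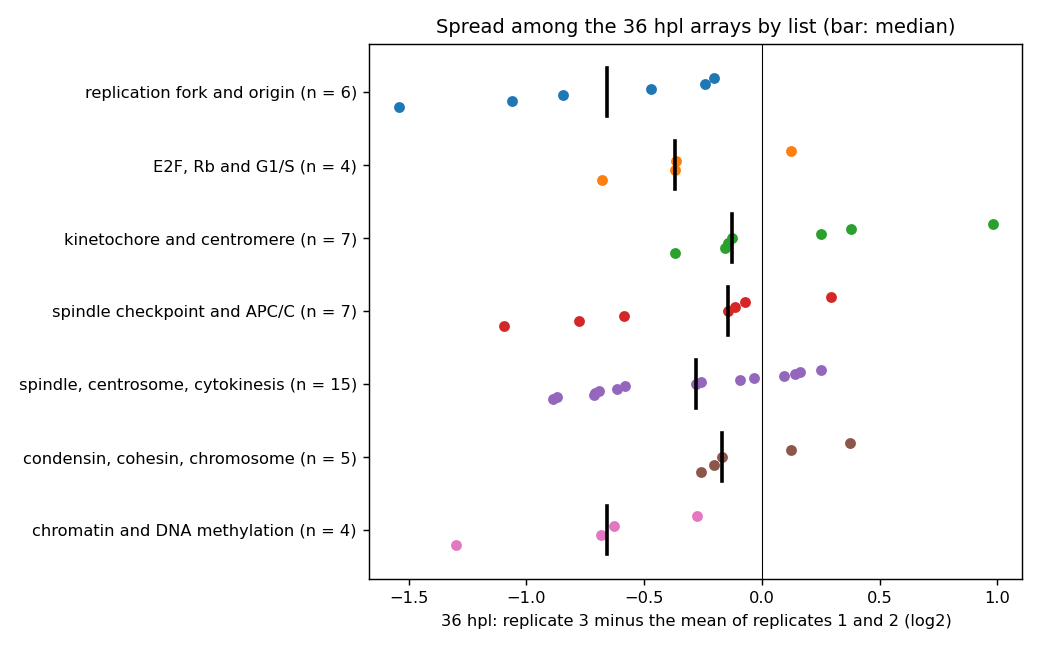
Each point is 1 member of the list named at the left, and the horizontal axis gives its log2 value at 36 hpl on replicate 3 minus the mean of replicates 1 and 2. Black bars are medians. All replication and chromatin members lie left of 0 with medians of -0.66, while kinetochore members lie on both sides around -0.13.

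The step was also read in arrays left out when the limits were applied. These arrays are not independent of the choice, because the limits were set with earlier results of these data known. Applying the limits without replicate 1, 2 or 3 of every time chose 132, 129 and 167 probe sets, of which 112, 115 and 125 were among the 135. In the left-out arrays, 36 minus 24 hpl was above 0 for 131 of 132, 127 of 129 and 162 of 167, and at least 1 for 104, 115 and 100 of them. The medians were 1.59, 1.76 and 1.17, against -0.03, -0.09 and -0.02 for all probe sets. The share of all probe sets at 1 or more in those arrays was 2.33%, 3.19% and 2.0%. Each of these readings rests on a single pair of arrays.

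Some probe sets lay close to the limits. For 36 minus 24 hpl, gins3 (1.02) and txnipa (1.03) were just inside, while wu:fb37g07 (0.98) and a probe set shared by si:ch211-214j24.2 and si:ch211-240j22.5 (0.99) were just outside. For 36 minus 0 hpl, 2 probe sets without a symbol were just inside (1.0049 and 1.0207) and 2 more just outside (0.9929 and just under 1). At 8 hpl net1 (0.44) and txnipa (0.39) were the highest inside, and a second stmn1b probe set (0.59) and 1 without a symbol (0.57) the lowest outside. At 16 hpl selenoh (0.49) and LOC795944 (0.45) were just inside, and LOC100002400 (0.51) and ece1 (0.52) just outside. Both probe sets were members for dlgap5, g2e3, tubb2b, zgc:110540 and LOC795944, and the second probe set of stmn1b had a similar step (1.79). The second probe set of zgc:86839 had a similar step to 36 hpl (1.48) but is no member, since it stood 0.86 above 0 hpl at 16 hpl and 1.60 above at 24 hpl. For marcksa, a membrane and actin-linked protein gene, they disagreed: the member probe set was 1.40 higher at 36 than at 24 hpl, the other 0.16 lower, so the gene's course is uncertain.

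The 24 probe sets set aside by symbol met the same numeric limits. Their median step was 2.1, against 1.54 for the members, and their median level was higher, with 7.13, 7.11 and 6.86 on the 36 hpl arrays, against 6.04, 6.16 and 5.76 for the members. The largest steps were those of rtkn2 (3.89), tacc3 (3.81) and plk1 (3.80), each above the largest step of any member.

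In the authors' deposited table, 131 of the 135 are listed, and its p-value against 0 hpl was under 0.05 at 36 hpl for 32 of them and at 8, 16 and 24 hpl for none. Of all 3164 probe sets in that table, 61, 213, 275 and 326 had such a value at 8, 16, 24 and 36 hpl. The limits used the differences from 0 hpl at 8, 16 and 36 hpl on the same arrays. They favour this pattern, which is therefore no independent support for a first rise at 36 hpl. At 24 against 0 hpl the fit used here called 13 members higher. The table's biological process terms named mitosis for 9 members (6.87%, against 0.411% of the table), the cell cycle for 12 (9.16%, against 1.36%) and microtubules for 5 (3.82%, against 0.727%). DNA replication was named for 2 members (1.53%, against 0.759%), and 61 members (46.6%, against 43.7%) had any term at all. Other terms counted were cell division (9 members, 6.87%, against 0.569%), DNA repair (2, 1.53%, against 0.253%) and chromosome (1, 0.763%, against 0.0948%). Transcription (4, 3.05%, against 4.68%) and proteolysis (1, 0.763%, against 1.58%) were less frequent among members. Cell adhesion (0.853% of the table) and cytokinesis (0.0316%) were named for no member. These shares describe the table's annotation, and the members exclude the replication families set aside by name. In the RefSeq gene table, 85 member genes were found on 25 chromosomes, with at most 7 on 1 of them, and the only neighbours on a chromosome were mtfr2 and armc1l. Mtfr2 measured 5.27, 5.27 and 4.60 at 36 hpl and 4.15, 3.93 and 3.89 at 24 hpl, and armc1l 6.12, 6.36 and 6.35 at 36 hpl and 4.81, 4.56 and 4.83 at 24 hpl. Both were higher on every 36 hpl array, and armc1l was called higher at 24 than at 0 hpl as well.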

How the data were processed

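The deposited values are log2 values made by the authors with RMA, per the submitters' processing notes, and the software that ran it is not given in the sources used here. The authors also deposited a table of 3164 probe sets with symbols, titles, process terms, fold changes relative to 0 hpl and p-values, without the test behind them. Arrays were grouped by their labelled time. The 115 control probe sets of the manufacturer were dropped and dim probe sets were kept. All 15 arrays entered 1 limma model (limma 3.58.1, R 4.3.3, lmFit and eBayes) with 1 coefficient per time. A call is a Benjamini-Hochberg adjusted p under 0.05, adjusted across 15502 probe sets. The fit was tested on simulated data. SEs are those of this fit, and the number of arrays, 3 per time, limits the precision.

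Symbols were updated through RefSeq synonyms (47 members), and set-aside symbols were compared in both forms. The members and the 22 gene lists were chosen with earlier results of these data known. Named genes are the 12 with the largest 36 minus 24 hpl difference and up to 5 per list, among members with 1 symbol that is not a clone or locus name, plus probe sets beside each limit and second probe sets of named genes. Other members named in the report were chosen after their values were seen. The lists hold 913 genes, of which 196 are named, and 52 members are on a list. Alternatives were other scalings, a filter on dim probe sets, array weights, other limits, replicate blocks and arrays left out. Leaving out 1 replicate number of every time was chosen after seeing the data. Promoter sequences and motifs were not analysed here. The values of 1 member that the rule names are not reported here.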

Additional observations from a re-analysis of the deposited data

How the results depend on the processing

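The count of probe sets under the limits, 135, was between 102 and 190 under other limits, scalings and filters, and 128 to 158 with 1 array left out, when 119 to 135 of the original members were shared. Of the 135, 94 met the limits whichever array was left out and 41 did not without some array. Among the list members described above, the 41 include mybl2b, nek2, nusap1, sass6, stmn1b, mibp, lbr, ncapd3, esco2, chaf1b, wdhd1, gins3 and hmgb2a. Outside the lists they include net1, crabp2a, selenoh, srgn, txnipa, ropn1l and mtfr2. The calls at 36 hpl stayed within 1.5 times the reported counts under every alternative run, at 121 to 155 against 24 hpl and 127 to 158 against 0 hpl with 1 array left out. Most of these runs chose the members again by the same limits, which largely fix these calls. Their stability is therefore no support for the rise. In the main fit 3.11% of all probe sets were called higher at 36 against 24 hpl and 19.9% at 36 against 0 hpl. Members called at 24 against 0 hpl numbered 14, and 24 (all higher) of 183 members under scaling on hybridisation controls, which gave a median at 24 against 0 hpl of 0.20 in place of -0.11 for all probe sets and 0.35 in place of 0.04 for the 135. With 1 array left out this count ranged from 9, without replicate 1 of 24 hpl, to 28, without replicate 3 of 36 hpl, where the member set itself differs. Members called between 8 and 16 hpl numbered 4, and 2 after quantile normalisation applied again, 2 with arrays centred on their medians, 7 with the dimmest 25% of probe sets left out, 15 with array weights, and 0 by limma in a fit on these groups alone, where 24 had an unadjusted p under 0.05. With 1 array left out that count ranged from 0 to 5. It was 0 without replicate 2 of 16 hpl, 1 without replicate 1 of 0 hpl, replicate 3 of 8 hpl or replicate 3 of 16 hpl, and 2 without replicate 2 of 8 hpl, replicate 1 of 24 hpl or replicate 1 of 36 hpl. Shares of all probe sets called are given only for the main fit, and none is given for an unadjusted p under 0.05. Whether the members or all probe sets moved cannot be read from the counts under the alternatives. The causes were not tested. Arrays of the same replicate number showed no common deviation (correlations -0.34 to 0.402, median -0.038, over 30 pairs). Arrays of different numbers gave -0.336 to 0.404, with a median of 0.008. Whether the numbers mark a pairing is not stated in the labels, and these correlations cannot settle it. With the replicate number as a block the counts were 131 at 36 against 24 hpl, 135 at 36 against 0 hpl, 15 at 24 against 0 hpl and 3 at 16 against 8 hpl. The values carry no detection calls, so how far the dim members stood above background is unknown.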
